A study of Drosophila melanogaster with 16 samples.

Results

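CG6981 (Snakeskin, Ssk) was described as the gene read by the 8 probes of transcript FBtr0074820, 1 of 16637 transcripts on a whole-transcriptome array, in cardiac tubes of young and aging Drosophila. It was chosen by its measured ratio of 40 to 10 days on these arrays, so that ratio and the levels behind it are given here as a description, without a test. Adult males of the w1118, Canton S isogenic line, kept at 25°C, were dissected at 10 days or at 40 days, with no other treatment or allele in either group. Each age had 4 biological replicates, lettered A to D, of 10 pooled cardiac tubes. Every replicate was labelled with Cy3 and with Cy5, and young and aging samples were hybridised together on 8 arrays of 1 slide, so 16 channels were read.

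Ssk encodes a small membrane protein of the smooth septate junction, the belt that seals the space between neighbouring cells in the midgut and the Malpighian tubules of the fly. It works there with Mesh, Tsp2A and Hoka, and in flies the loss of Ssk from the adult gut weakens the intestinal barrier. Most other epithelia of the fly, and the glia that wrap its nerves, are sealed by pleated septate junctions, which use another set of proteins such as Neuroglian and the claudins Kune-kune and Megatrachea (pck). The dissected cardiac tube is a muscle tube that keeps pericardial cells and can keep remnants of the tissues around it.

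The probe sequences were not used here. The study also designed a primer pair for this gene, shown because it gives the only CG6981 sequence at hand; every base is in lower case as no part is singled out, and the gene lies on chromosome arm 3L.
forward primer: agggttacatgtccgacgag
reverse primer: tgcgattggtatccccacta
In the RefSeq annotation of the Release 6 assembly, Ssk has 2 transcripts and lies inside the span of CG42674. The nearest genes beside it are lncRNA:CR45942 and CG42833. None of these 3 genes could be named on the array, so no level is given for them.

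CG6981 was far brighter at 40 days than at 10 days in every sample. On the deposited normalized intensities, as the log2 mean of 8 probes and of both dyes, the 10-day samples read 8.46 (A), 8.64 (B), 8.76 (C) and 8.79 (D). The 40-day samples read 12.26 (A), 12.09 (B), 11.88 (C) and 12.46 (D). The ages did not overlap, and the lowest 40-day sample stood 3.09 log2 units above the highest 10-day sample. Such a separation, with all 4 aging samples above all 4 young ones, was met by 3.29% of all transcripts, and nothing is read from this for CG6981 because its age contrast chose it. The spread within an age was small beside the gap. Its SD was 0.15 at 10 days and 0.25 at 40 days (n = 4 each), against a median SD over all transcripts of 0.18 and 0.17. In tissue RNA of this kind, more cells of a type and more RNA per cell cannot be told apart.

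Before the ratios are given, 1 disagreement about the samples of both ages has to be stated. Of the 16 columns of normalized values, 8 followed their own scanner channel and 8 followed another channel of the same age and dye. Those 8 were both dyes of 10-day B and C, which were exchanged, and the Cy3 column of every 40-day letter. Letters B and C at 10 days thus name different samples in the normalized values and in the scanner files. The followed channel correlated at 0.992 or more over all probes, and the next best at 0.942 or less. In the columns of normalized values, the Cy3 and Cy5 readings of 1 sample deviated together from the other samples of their age, with r of 0.63 to 0.85 at 40 days across transcripts. In the scanner channels as labelled, the same r lay between -0.36 and 0.37 at 40 days, and between 0.73 and 0.85 at 10 days. The age of a channel is the same in both, so no comparison of ages changes direction, but the letters of the 40-day scanner channels did not keep the dyes of 1 extract together. Levels by sample are therefore taken from the normalized values. Ratios from the scanner files, 1 for each letter from its 2 dye-swapped arrays, are given with that limit. If the letters of the normalized values are right, each aging extract enters 2 letter ratios. Those 4 ratios are then not independent, and their SE and p may not give the spread between samples. Tests are therefore given from the letter ratios and from the 4 against 4 normalized samples.

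On the letter ratios, CG6981 was 11.0 times brighter at 40 days. The log2 ratio was 3.46 ± 0.19 (SD, n = 4), with 3.53 for letter A, 3.20 for B, 3.44 for C and 3.65 for D. The normalized samples gave a difference of 3.51. All 8 arrays showed the same direction, between 3.05 (B, 40 days in Cy3) and 3.79 (C, 40 days in Cy3). In the order of ratios over 16637 transcripts CG6981 stood sixth, with 5 above it. The median transcript had a log2 ratio of 0.01, and 95% of transcripts lay at or under 0.42.

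The 8 probes started at positions 37, 133, 151, 160, 239, 305, 413 and 430 of the transcript and were 60 bases long, so that they spanned 453 bases. They are not independent readings. The probe at 151 shares 42 bases with the one at 133 and 51 with the one at 160, and those at 413 and 430 share 43.

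Each of the 8 probes was brighter in every 40-day channel than in every 10-day channel. At position 413, the brightest probe, scanner intensities at 10 days ran from 417 to 3407 with a median of 1567. At 40 days they ran from 14528 to 29915 with a median of 25326. This probe then ranked between 8 and 174 among the 132999 gene probes in the 40-day channels. At position 37, the dimmest, the 10-day channels read 71.5 to 247 with a median of 103, and the 40-day channels 308 to 635.3 with a median of 442. That probe was at the level of the random control probes at 10 days: 1 of 8 channels exceeded the 95th percentile of the controls, against 8 of 8 at 40 days. The other 7 probes exceeded it in all 8 channels at both ages. Brightness differs between probes through their sequences, so probe levels are not compared as amounts.

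**Figure D1:**
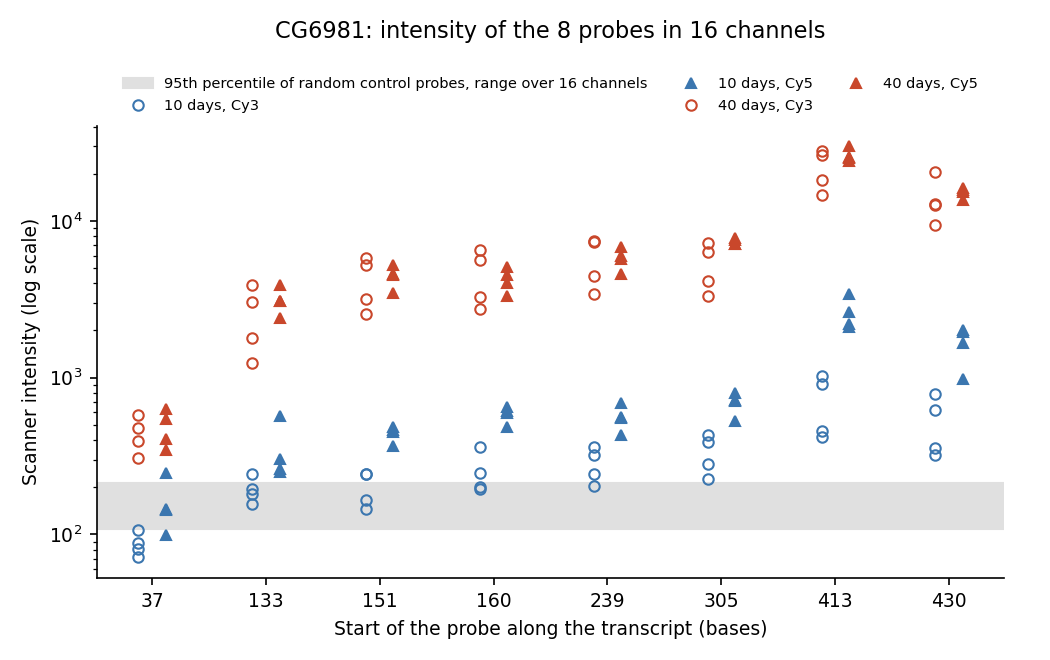
Scanner intensity (log scale) of the 8 CG6981 probes, ordered by start position, in 16 channels; blue is 10 days, red is 40 days, circles are Cy3 and triangles Cy5. The grey band is the range over channels of the 95th percentile of the random control probes (108 to 214), in or below which 7 of the 8 young channels fall at position 37.

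The size of the age ratio differed among probes. The probe at position 37 read a log2 ratio of 1.87 ± 0.22 (SD, n = 4), but its young reading exceeded the controls in 1 of 8 channels, so this value is taken over background and is not ranked with the others. Among the other 7 probes the ratio was largest at position 413, at 4.19 ± 0.30, or 18.2-fold. Next to it, position 430 gave 3.99 ± 0.11. The remaining 5 probes gave 3.23 ± 0.39 (133), 3.70 ± 0.33 (151), 3.38 ± 0.21 (160), 3.71 ± 0.37 (239) and 3.58 ± 0.15 (305). The SD over these 7 probe means was 0.33, within the SDs of single probes over letters, 0.11 (430) to 0.39 (133). The SD of 0.19 over letters belongs to the mean of all 8 probes and is not set against it. All 56 readings of these 7 probes on 8 arrays lay between 2.44 and 4.54. Over these 7 probes the ratio of CG6981 was 3.68 ± 0.10 (SE, n = 4), or 12.8-fold. Over 5 probes that share no bases (37, 133, 239, 305 and 413), the background-level one included, it was 3.32 ± 0.09 (SE, n = 4).

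**Figure D2:**
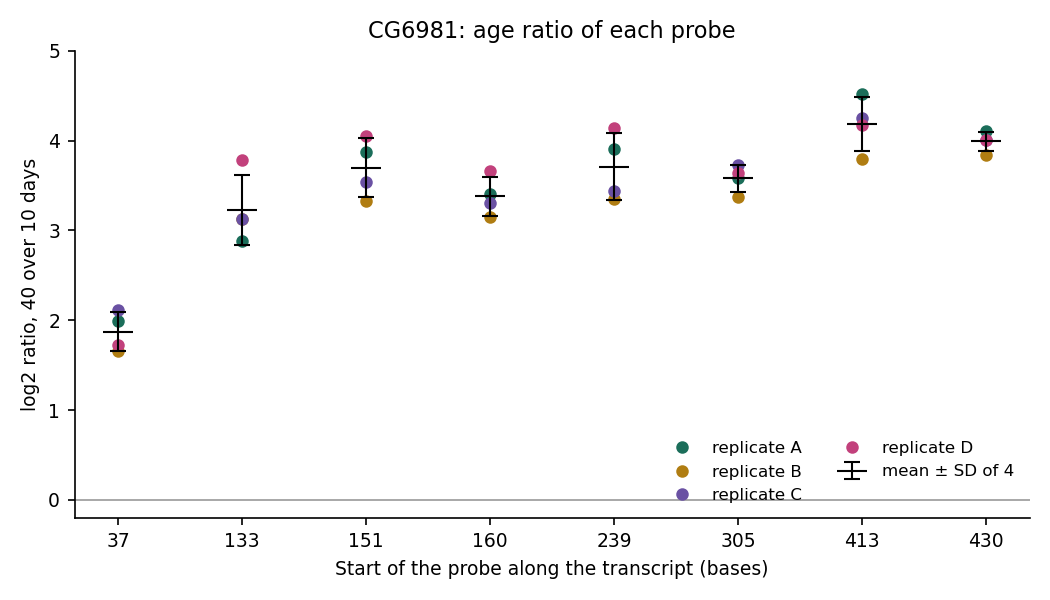
Log2 ratio of 40 to 10 days for each CG6981 probe against its start position; coloured points are the 4 letters and black bars the mean ± SD. The means run from 3.23 at position 133 to 4.19 at position 413, and the probe at 37, at background level in young channels, reads 1.87.

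Probes nearer the 3' end read larger ratios. Over the 7 probes above the controls at both ages, the log2 ratio correlated with start position (r = 0.85, rho = 0.79) and with the 10-day level of the probe (r = 0.88, rho = 0.82). These are descriptions over 7 probes that share channels and, in part, bases.

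By brightness within a channel, CG6981 was already among the brighter transcripts of young tubes and was close to the top in aging ones. Its median rank of 16637 over the 8 young channels was 1364, with extremes of 1034 and 1615. Its median rank in aging channels was 111, with extremes of 43 and 170. Between 6.21% and 9.70% of transcripts outshone it in young channels, and between 0.252% and 1.02% in aging ones. The ranges are far apart, though a rank by brightness also carries the sequence of each probe. The highest young rank was read in sample D with Cy5 and the highest aging rank in the channel labelled C with Cy3.

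**Figure D3:**
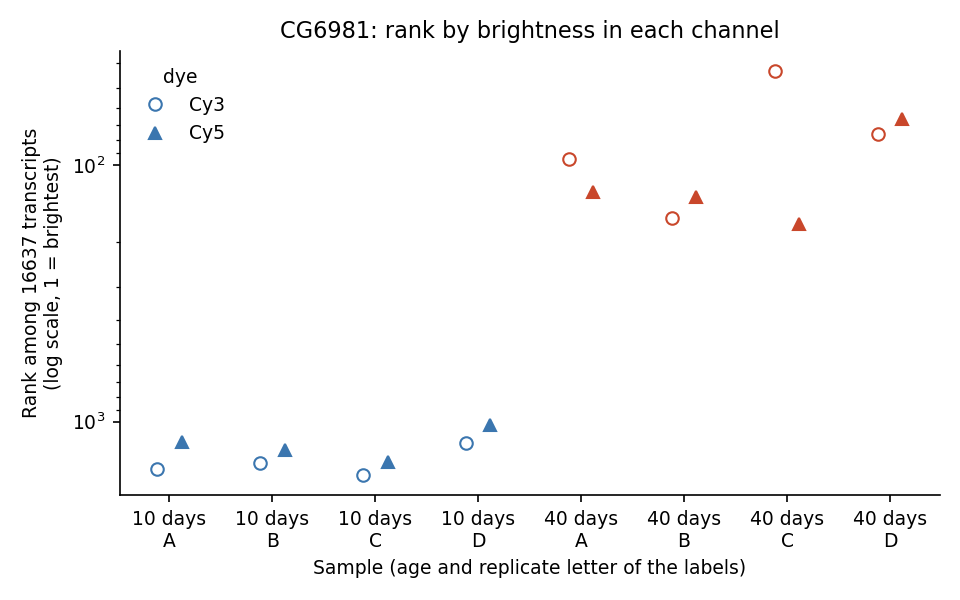
Rank of CG6981 by mean log2 brightness among 16637 transcripts (log scale, 1 is brightest) in each channel, by age and by the letter of the scanner labels; circles are Cy3 and triangles Cy5. Young channels lie between 1034 and 1615 and aging channels between 43 and 170.

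After loess within each array, no dye effect was called for CG6981. With the aging sample in Cy3 the 4 arrays averaged 3.50, and with it in Cy5 they averaged 3.41. The dye effect, Cy5 over Cy3, was -0.04 ± 0.09 on the log2 scale (SE, n = 4 letters, 95% interval -0.27 to 0.18; limma, adjusted p = 0.999992). With median centring in place of loess it was 0.58 (limma, adjusted p = 0.274). Of all transcripts 0% (0 of 16637) were called for a dye effect at an adjusted p under 0.01, by limma on 4 letters and also on 8 arrays taken as independent, and 393 had an unadjusted p under 0.05. If the letters of the normalized values are right, the arrays of a letter held different aging extracts. The dye SE and p then also carry differences between extracts, so the absence of calls does not exclude a dye effect. Levels, unlike ratios, did differ with the array. The 4 arrays with aging samples in Cy3 had a median transcript level of 6.78 to 6.97 over both channels, and the other 4 had 6.61 to 6.74. CG6981 at 40 days read 12.16 to 12.73 in Cy3 and 11.64 to 12.28 in Cy5, and at 10 days 8.24 to 8.64 in Cy3 and 8.80 to 9.11 in Cy5.

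Other genes of the septate junctions read modest ratios beside that of CG6981, and none was called. Of 36 such genes listed besides CG6981, 9 could be named on the array. Names came from the list of probes that the study called induced, so neither the direction nor the p of these genes is independent evidence. The remaining 27, mesh among them, were not examined. With limma at an adjusted p under 0.01, 0 of the 9 passed on the letter ratios, where 0.144% of all transcripts (24) were called higher. On the 4 against 4 normalized samples 0 of the 9 passed as well, where 0.301% (50) were called higher. All 9 had an unadjusted p under 0.05 in both fits, as did 17.6% of all transcripts on the letter ratios. This is no support, since the genes were named through calls on these same arrays, and the share among the 700 named transcripts was not computed. Their median log2 ratio was 0.59, the same as the 0.59 of all 700 transcripts that could be named, against 0.01 for all transcripts. In 5 of the 9 the 4 aging samples lay above the 4 young ones, against 3.29% of all transcripts and 54.7% of the 700 named ones, so the share is near that of the named transcripts.

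The closest partners of Ssk varied much more between samples than Ssk did. Tsp2A, the tetraspanin of the smooth junction, read 6.53 (A), 6.38 (B), 7.12 (C) and 6.67 (D) at 10 days in log2 normalized intensity. At 40 days it read 7.60 (A), 7.49 (B), 8.54 (C) and 8.68 (D), without overlap. Its log2 ratio was 1.30 ± 0.24 (SE, n = 4; limma, adjusted p = 0.105), and 1.40 ± 0.30 with an adjusted p of 0.103 in limma on the normalized samples. The aging samples fall into a lower pair and a higher pair, which CG6981 did not show. Of its 8 probes 7 had a mean ratio above 0, up to 2.78.

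Hoka (CG13704), the smaller membrane protein of that complex, read 8.82 (A), 7.48 (B), 9.21 (C) and 7.55 (D) at 10 days. At 40 days it read 9.74 (A), 9.70 (B), 10.93 (C) and 8.89 (D), so the ages overlapped. Its log2 ratio was 1.49 ± 0.28 (SE, n = 4; limma, adjusted p = 0.111), and 1.55 ± 0.52 with an adjusted p of 0.293 in limma on the normalized samples. The young samples alone differed by 1.73 log2 units, against 0.34 for CG6981.

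Among the 7 named genes of pleated and other septate junctions, the 4 with the smallest p were pasi2, Nrg, udt and kune. Pasi2, a membrane protein of the pleated junction, had a log2 ratio of 0.46 ± 0.05 (SE, n = 4; limma, adjusted p = 0.0433). Nrg, the L1-type adhesion molecule Neuroglian, had 0.86 ± 0.11 (limma, adjusted p = 0.0501). In both genes the aging samples lay above the young ones, from 7.17 to 7.50 against 6.71 to 6.99 for pasi2 and from 7.59 to 8.26 against 6.76 to 7.35 for Nrg. Kune, a claudin, had 1.03 ± 0.14 (limma, adjusted p = 0.0560), and udt had 0.35 ± 0.05 (limma, adjusted p = 0.0543). The ages overlapped for both. On the normalized samples limma gave these 4 genes adjusted p of 0.123 (pasi2), 0.0668 (Nrg), 0.184 (kune) and 0.289 (udt). Pck, Fas3 and cold had log2 ratios of 0.41, 0.55 and 0.59.

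**Figure D4:**
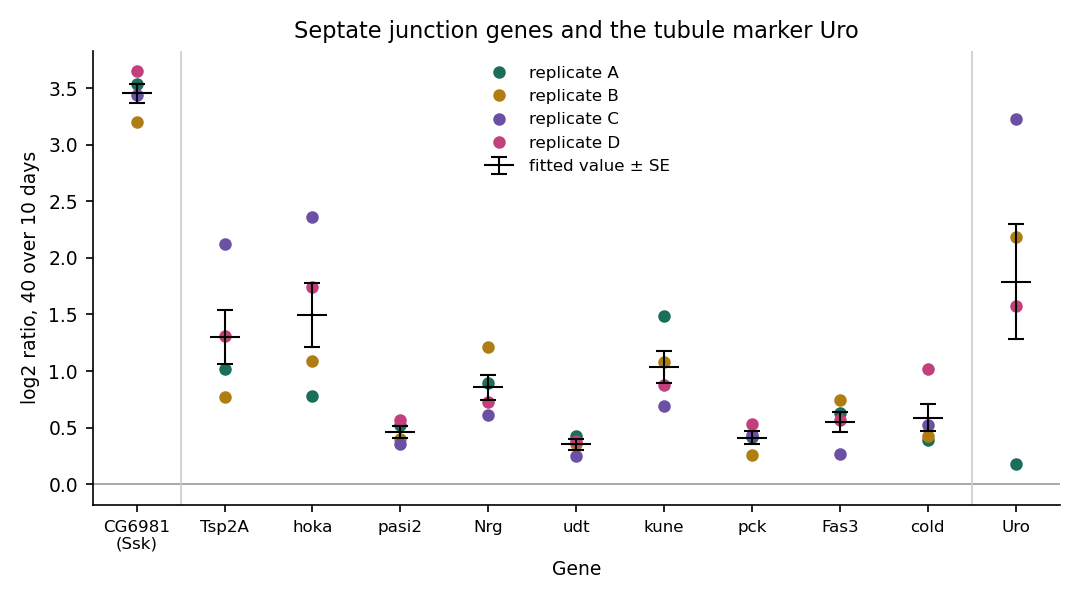
Log2 ratio of 40 to 10 days for CG6981, the 9 other septate junction genes that could be named, and the tubule marker Uro; coloured points are the 4 letters and black bars the fitted value ± SE. CG6981 lies at 3.20 to 3.65 over the letters, while no letter of another septate junction gene exceeds 2.36. At 10 days most probe values of the other junction genes, except hoka and kune, did not exceed the controls. At 40 days this still held for Nrg, pck, Fas3, pasi2 and udt.

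Malpighian tubule and gut cells use smooth septate junctions, so markers of cells other than heart muscle were read beside CG6981. Of 85 marker genes in 12 lists, 5 could be named, in the midgut, Malpighian tubule, fat body and haemocyte lists. These too could be named only because the study listed them as induced on these arrays, so neither their direction nor their p is independent evidence. Neither the 11 heart muscle nor the 7 cardiac identity genes could be named, so the tissue label was not checked. Uro, the urate oxidase made in the main segment of the tubule and the only one of 9 tubule markers named, read 6.59 to 7.10 at 10 days. At 40 days it read 7.25 (A), 6.92 (B), 10.91 (C) and 10.02 (D), so C and D were high and A and B stayed near the young level. In A and B, where Uro was near the young level, CG6981 read 12.26 and 12.09, and in C and D it read 11.88 and 12.46. The high Uro samples were also those with the higher Tsp2A readings at 40 days, but this did not hold for hoka. Hoka at 40 days read 9.74 (A), 9.70 (B), 10.93 (C) and 8.89 (D), so D, high in Uro, was its lowest. Whether tubule cells enter any of these readings was not tested.

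Of the 5 named markers 1 was called in each fit, where 0.144% of all transcripts were called higher on the letter ratios and 0.301% on the normalized samples. Among the 700 named transcripts those shares were 3.43% and 7.14%. Uro was not called (log2 ratio 1.79 ± 0.51, SE, n = 4; limma, adjusted p = 0.209). LManII, a lysosomal mannosidase and the only one of 13 midgut markers named, had 0.63 ± 0.10 (limma, adjusted p = 0.0828). The fat body gene apolpp, which makes the main lipid carrier of the blood, had 1.22 ± 0.35 (limma, adjusted p = 0.210). Of the 8 haemocyte markers 2 were named. NimC4, a receptor for dying cells in phagocytes and glia, had a log2 ratio of 2.06 ± 0.08 (SE, n = 4; limma, adjusted p = 0.00603). It read 6.12 to 6.54 in young samples and 8.06 to 8.87 in aging ones, and 4 of its 64 young values exceeded the controls. With any 1 letter left out, no transcript of the array was called higher, so those fits cannot tell how firm the NimC4 call is. The scavenger receptor gene crq had 0.63 ± 0.07 (limma, adjusted p = 0.0411), and its ages overlapped. On the normalized samples limma gave an adjusted p of 0.00127 for NimC4 and between 0.158 and 0.490 for the other 4. The part of haemocytes and of the other cells in the CG6981 reading was not tested.

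In the order of ratios, the neighbours of CG6981 spread more over the letters than it did. Just above it were AttC, an antimicrobial peptide gene, at 3.63, and Drsl5, a gene of the drosomycin family, at 3.55. Just below it were lncRNA:CR32368 at 3.42 and CG8353 at 3.37. The letter ratios ranged from 3.17 to 4.08 for AttC, 2.66 to 4.31 for Drsl5, 2.71 to 3.86 for lncRNA:CR32368 and 2.82 to 3.77 for CG8353, against 3.20 to 3.65 for CG6981. The 5 genes overlapped in these ranges, so their order is not beyond their spread.

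The transcripts most like CG6981 over the 8 normalized samples, among 16629 with 3 or more probes, were those that also separated the ages. The 8 highest were Sid, a stress-induced nuclease gene (r = 0.99), the lectin gene CG7763 (0.99), the tetraspanin genes Tsp42Ea (0.99) and Tsp42Er (0.98), CG13511 (0.98), NT5E-2 (0.98), CG15210 (0.98) and CG7255 (0.98). After each age was centred on its own mean, r was 0.73 for Tsp42Ea, 0.60 for Tsp42Er and 0.46 for CG13511. It lay between -0.01 and 0.38 for the other 5. These are descriptions over 8 samples of 1 slide. Several of these genes were near background when young: 9 of 64 values of Tsp42Er exceeded the controls, 10 of Sid, 11 of CG7763 and 16 of CG13511. For Tsp42Ea it was 57. In all, 46 transcripts had r above 0.95 to CG6981. Tsp42Ea, the one closest after centring, read 8.51 to 9.21 in young samples and 10.72 to 11.24 in aging ones. Its log2 ratio of 2.01 missed the threshold on the letter ratios (limma, adjusted p = 0.0128) and passed it on the normalized samples (limma, adjusted p = 0.00148). It was picked for its likeness to a gene chosen by this contrast, so neither p is independent support.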

How the data were processed

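Deposited scanner files held 1 intensity per probe and dye from NimbleScan 2.5.26 with no background subtracted. A second deposited table held the authors' normalized intensity per channel. There were 132999 gene probes and 4100 random controls, and the brightest reading was 59047. The number of arrays limits the precision. Scanner intensities were corrected with normexp (offset 50), loess-normalized within each array, averaged over probes of a transcript and over the dye-swapped arrays of a letter (limma 3.58.1, R 4.3.3). The 4 ratios were tested against 0 with lmFit and eBayes, with Benjamini-Hochberg adjustment over 16637 transcripts and a threshold of 0.01. The steps were tested on simulated data. Gene names came from the study's probe list (700 transcripts, 698 matched to RefSeq). That list's fold changes served only to check names against the study's gene list. Of the genes reported, Sid, CG7763 and CG7255 did not pass this check. P-values and clusters of the list were not used. The gene, lists and tests were chosen with earlier results of these data known. Named genes were CG6981, the smooth junction genes, the 4 smallest p of the other junction genes, 8 like transcripts, 4 rank neighbours, flanking genes and up to 2 genes per marker list. P-values on the normalized samples measure the spread between these samples. Those on the letter ratios measure the spread between ratios that may share aging extracts.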

Additional observations from a re-analysis of the deposited data

Results flagged for a closer look

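Of 89 groups of 4 values checked, 1 held a value far from the others, and chance alone gives about 1 in 20. The haemocyte marker crq read 8.36 in 10-day replicate B, against 7.61 in the next highest of the other 3. No group of CG6981 values, by sample, by letter or by probe, held such a value.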

How the results depend on the processing

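CG6981's log2 ratio stayed between 3.39 and 3.59 under every alternative run, 3.39 to 3.54 without each replicate. Only its median 10-day rank moved, to 2246, where transcripts were averaged over probes above the control percentile. Its dye effect was called in no setting and ranged from -0.11 to 0.06 without each replicate. With median centring it was 0.58.

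Whether the replicate letters pair the samples was not settled. Same-lettered deviations correlated at -0.04 (A), 0.29 (B), -0.13 (C) and 0.38 (D) in the labelled scanner channels, and at -0.19, -0.03, 0.47 and 0.25 in the normalized samples. The scanner values cannot decide it, because those letters did not keep the dyes of 1 extract together at 40 days. With no replicate block, 136 transcripts were higher and 12 lower at 40 days, and 1 pleated junction gene was called, Nrg (limma, adjusted p = 0.00395). Against 24 higher and 7 lower, other settings gave 37 higher with median centring, 50 on normalized samples, and 45 with scanner channels assigned as in the normalized table (chosen after seeing the data). Taking 8 arrays as independent gave 400 higher and 119 lower, with 1 smooth (Tsp2A) and 6 pleated junction genes. Probes above the control percentile gave 52 and 11, the median of probes 13 and 3, and a trended robust prior 1 and 0. At a threshold of 0.05 there were 222 and 33, with 1 pleated junction gene (pasi2), and at 0.0001 there were 0 and 0. Without each replicate the range was 0 to 0 for higher, lower and septate junction calls. The cause of these differences was not tested.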
